A study of Mus musculus with 92 samples.

Results

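The respiratory chain and the ATP synthase of mitochondria are built from subunits of which most are encoded in the nucleus. The genes described here are the nuclear genes of complexes I to V, taken by gene name: names beginning Nduf followed by a, b, c, s or v and a digit, the Sdh genes a to d, and names beginning Uqcr, Cox4 to Cox8 or Atp5. Of 29956 named genes, 87 matched, 3 of these carried pseudogene names and were left out, and 76 of the remaining 84 lay above 0 log2 CPM in at least 46 of the 92 libraries. These 76 members are 35 genes of complex I, 4 of complex II, 8 of complex III, 12 of complex IV and 17 of complex V.

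Complex I (NADH dehydrogenase) and complex II (succinate dehydrogenase) pass electrons to ubiquinone, complex III passes them to cytochrome c, and complex IV (cytochrome c oxidase) passes them to oxygen. Complex V makes ATP with the proton gradient that complexes I, III and IV build. Macrophages change their use of this chain with activation, and interferon and succinate signalling have been linked to it.

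The study asked whether ER-Hoxb8 cells, which are mouse marrow progenitors held in division by an estrogen-regulated Hoxb8 and released by taking estrogen away, can stand in for microglia. It also asked what loss of Adar1, an RNA-editing enzyme whose loss sets off interferon signalling, does to such cells. Bulk RNA was read from cultured cells and from cells sorted from mouse brain. BM progenitors, BM monocytes and bone marrow-derived (BMD) macrophages came from FVB wild-type mice, and ER-Hoxb8 progenitors, day 4 cells (4 days in vitro) and macrophages (7 days in vitro in M-CSF) came from 3 independent lines made from FVB mice heterozygous for Cas9. Microglia-like cells (MLCs) were BMD or ER-Hoxb8 cells injected into the brain of Csf1r-/- hosts and sorted again (ER-Hoxb8 MLCs labelled wild type). By a figure legend of the paper, progenitors from marrow or of ER-Hoxb8 lines were injected, and not the cultured macrophages. Microglia came from uninjected FVB wild-type mice, and the age at sorting is not in the labels. Adar1 KO and NTC (non-targeting control) cells carried Cas9 and an sgRNA, with sgRNA 1 or sgRNA 2 against Adar1. The labels do not say whether replicates of an sgRNA came from more than 1 transduced line. An effect of the knockout and a difference between lines therefore cannot be told apart. In the drug series NTC and Adar1 KO sgRNA 1 cells were grown into macrophages over 7 days with baricitinib, a JAK inhibitor, at 0, 0.0006, 0.016, 0.4 or 10 uM by their titles.

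The 92 libraries fell into sets by their lowest value, and levels were compared only inside a set. The first, the marrow set, held BM progenitors, BM monocytes, ER-Hoxb8 progenitors and day 4 cells (12 libraries). The second, the brain set, held both kinds of macrophages, both kinds of MLCs and microglia (27 libraries). The third held NTC and sgRNA 1 cells (11 libraries), a set of its own held NTC macrophage replicate 2, another held sgRNA 2 cells (8 libraries), and the last held the baricitinib series (33 libraries). NTC macrophage replicate 2 was therefore left out of every test unless named, so NTC macrophages had 2 libraries there. In bulk RNA, fewer cells of a type and less RNA per cell cannot be told apart. Brain cells were extracted with TRIzol LS and a micro kit and cultured cells with a mini kit, so preparation and residence in the brain cannot be told apart. ER-Hoxb8 macrophages came from Cas9 lines while ER-Hoxb8 MLCs are labelled wild type and bear library names of 2 kinds, so cell line and residence in the brain may be mixed as well.

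Members just inside and outside the threshold differed widely in level. Cox7a1, a heart and muscle form of a complex IV subunit, was the nearest inside, above 0 log2 CPM in 71 libraries with a median of 0.93. Ndufs4 was above 0 in 90 libraries, Ndufa9 and Atp5sl in 91, and the other 72 members in all 92. Outside lay Cox6a2 (29 libraries), Cox6b2 (24 libraries), Cox4i2 (5 libraries) and Ndufa4 (5 libraries), while Cox7b2, Cox8b, Cox8c and Ndufa4l2 passed 0 in none. Atp5s and Atp5sl match the name rule, but their products (Dmac2l and Dmac2) are not subunits of the assembled enzyme. By their names they are still counted with complex V in every count and median below.

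Marker genes were read before any comparison of the members. Summed progenitor markers (Kit, Cd34, Mpo, Elane) came to 64.1 and 28.5 CPM in the libraries labelled ER-Hoxb8 progenitors replicates 1 and 2, against 2764 CPM in replicate 3 and 6698, 13686 and 15622 CPM in BM progenitors. Their macrophage markers (Csf1r, Emr1, Cd68, Mrc1) came to 1912, 4447 and 425 CPM, so 2 of these 3 libraries had few progenitor transcripts, and the name is used below as their label alone. Day 4 cells held 34.6, 40.5 and 37.7 CPM of the progenitor markers.

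Several brain libraries stood apart. Summed monocyte markers (Ly6c2, Ccr2, F13a1) were 6563 CPM in ER-Hoxb8 MLC replicate 6, against 215 to 660 CPM in the other ER-Hoxb8 MLC libraries. Microglia replicate 8 had 4.32% of its CPM in mitochondrially encoded genes, against 0.597% to 1.26% in the other microglia libraries. BMD macrophage replicate 3 held 1133 CPM of monocyte markers and 1080 CPM of proliferation markers (Mki67, Top2a, Birc5, Ccnb1).

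Adar, the gene targeted for Adar1 KO, was not lower in KO cells without drug. It stood at 4.20, 3.42 and 4.28 log2 CPM in NTC progenitors and at 4.36, 4.23 and 4.24 in sgRNA 1 progenitors, and at 5.73 and 5.67 in NTC macrophages and 6.96, 7.15 and 7.01 in sgRNA 1 macrophages. The cut itself cannot be read from these levels. In the baricitinib series Adar was 7.42, 6.52 and 6.37 in Adar1 KO cells at 0 uM and 1.55, 2.15, 2.91 and 2.03 at 10 uM, against 5.12, 4.94 and 4.69 and then 3.70, 3.64 and 3.22 in NTC cells. Adar1 KO replicate 2 at 0.4 uM (Adar 7.38) lay apart from its fellow replicates (4.12 and 4.21).

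Promoters of 65 members could be taken from the reference (71 promoters, from 250 bases before to 50 bases after a RefSeq transcript start, build GRCm38.p6), and its table had no entry for 11 members. A member with more than 1 promoter was counted once for each. The NRF1 half-site GCATGCG, read on both strands, lay in 11 of the 71 (15.5%) and in 3.58% of all 32851 promoters. The ETS site CCGGAAG lay in 16 (22.5%, all promoters 8.86%) and the YY1 site AAGATGG in 13 (18.3%, all promoters 6.34%). The YY1 site was in 7 of 33 complex I promoters and 5 of 20 complex V promoters, in 1 of 10 of complex IV, and in 0 of 3 of complex II and 0 of 5 of complex III. The E-box CACGTG lay in 9 (12.7%, all promoters 7.15%), 6 of them in complex V. Atp5sl, which is not a subunit, enters the YY1 and E-box counts of complex V with more than 1 promoter. Ndufa7 enters the E-box count of complex I in the same way. The Sp1 site GGGCGG lay in 27 (38.0%, all promoters 35.7%) and the NF-Y site CCAAT in 30 (42.3%, all promoters 37.4%). The CRE TGACGTCA lay in 4 (5.63%, all promoters 1.79%) and TATAAA in 6 (8.45%, all promoters 13.6%). These shares are a description and were given no test.

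The promoters of 4 members are printed below, each 300 bases on the transcribed strand from RefSeq, with capitals marking the motif. Ndufa9 (chr6:126849095-126849394, minus strand) is shown because its log2FC in the drug series was the largest of any member, and its YY1 site lies 30 to 36 bases after the start. Sdhb (chr4:140961021-140961320, plus strand) is shown as the complex II member that rose while Sdhc fell in the drug series, with an NRF1 site at 54 to 48 bases before the start and an ETS site at 7 to 13 bases after it. Uqcr11 (chr10:80406772-80407071, minus strand) is shown for NRF1 sites that overlap on both strands at the start and an ETS site at 66 to 60 bases before it. Atp5g1 (chr11:96075582-96075881, minus strand) is shown as a member called in 9 of the 18 comparisons, with an E-box at 44 to 39 bases before the start.
Ndufa9: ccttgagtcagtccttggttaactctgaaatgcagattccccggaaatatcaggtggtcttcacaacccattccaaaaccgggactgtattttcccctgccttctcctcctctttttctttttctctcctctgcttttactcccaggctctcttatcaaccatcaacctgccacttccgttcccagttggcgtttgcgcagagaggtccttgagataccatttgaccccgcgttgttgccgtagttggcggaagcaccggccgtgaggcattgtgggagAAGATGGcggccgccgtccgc
Sdhb: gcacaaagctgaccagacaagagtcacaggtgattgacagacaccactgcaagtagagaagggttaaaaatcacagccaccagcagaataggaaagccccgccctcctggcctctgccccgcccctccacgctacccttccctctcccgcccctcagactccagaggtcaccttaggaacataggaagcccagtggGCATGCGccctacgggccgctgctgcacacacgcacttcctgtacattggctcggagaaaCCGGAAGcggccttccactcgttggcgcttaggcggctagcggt
Uqcr11: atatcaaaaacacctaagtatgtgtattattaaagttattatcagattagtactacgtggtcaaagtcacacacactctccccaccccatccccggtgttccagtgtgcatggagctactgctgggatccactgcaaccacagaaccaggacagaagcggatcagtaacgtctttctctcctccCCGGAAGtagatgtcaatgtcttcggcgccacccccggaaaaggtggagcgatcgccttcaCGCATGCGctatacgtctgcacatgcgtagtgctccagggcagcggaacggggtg
Atp5g1: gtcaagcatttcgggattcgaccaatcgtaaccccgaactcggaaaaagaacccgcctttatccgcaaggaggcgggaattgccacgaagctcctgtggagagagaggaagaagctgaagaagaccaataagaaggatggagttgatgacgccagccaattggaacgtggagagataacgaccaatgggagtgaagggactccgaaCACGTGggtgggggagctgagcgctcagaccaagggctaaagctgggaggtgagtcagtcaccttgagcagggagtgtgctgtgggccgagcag

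In the marrow set the members as a group made up 1.84% to 1.94% of CPM in BM progenitors and 1.16% to 1.77% in BM monocytes. In the brain set the share was 0.906% to 1.16% in BMD macrophages, 0.955% to 1.16% in ER-Hoxb8 macrophages and 0.598% to 1.01% in microglia. In BMD MLCs it was 0.71% to 0.905%, below every ER-Hoxb8 MLC library (0.966% to 1.58%). In the drug series it was 0.956% to 1.09% in Adar1 KO cells at 0 uM and 1.64% to 2.02% at 10 uM, with NTC cells at 0 uM at 1.07% to 1.13%.

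**Figure D1:**
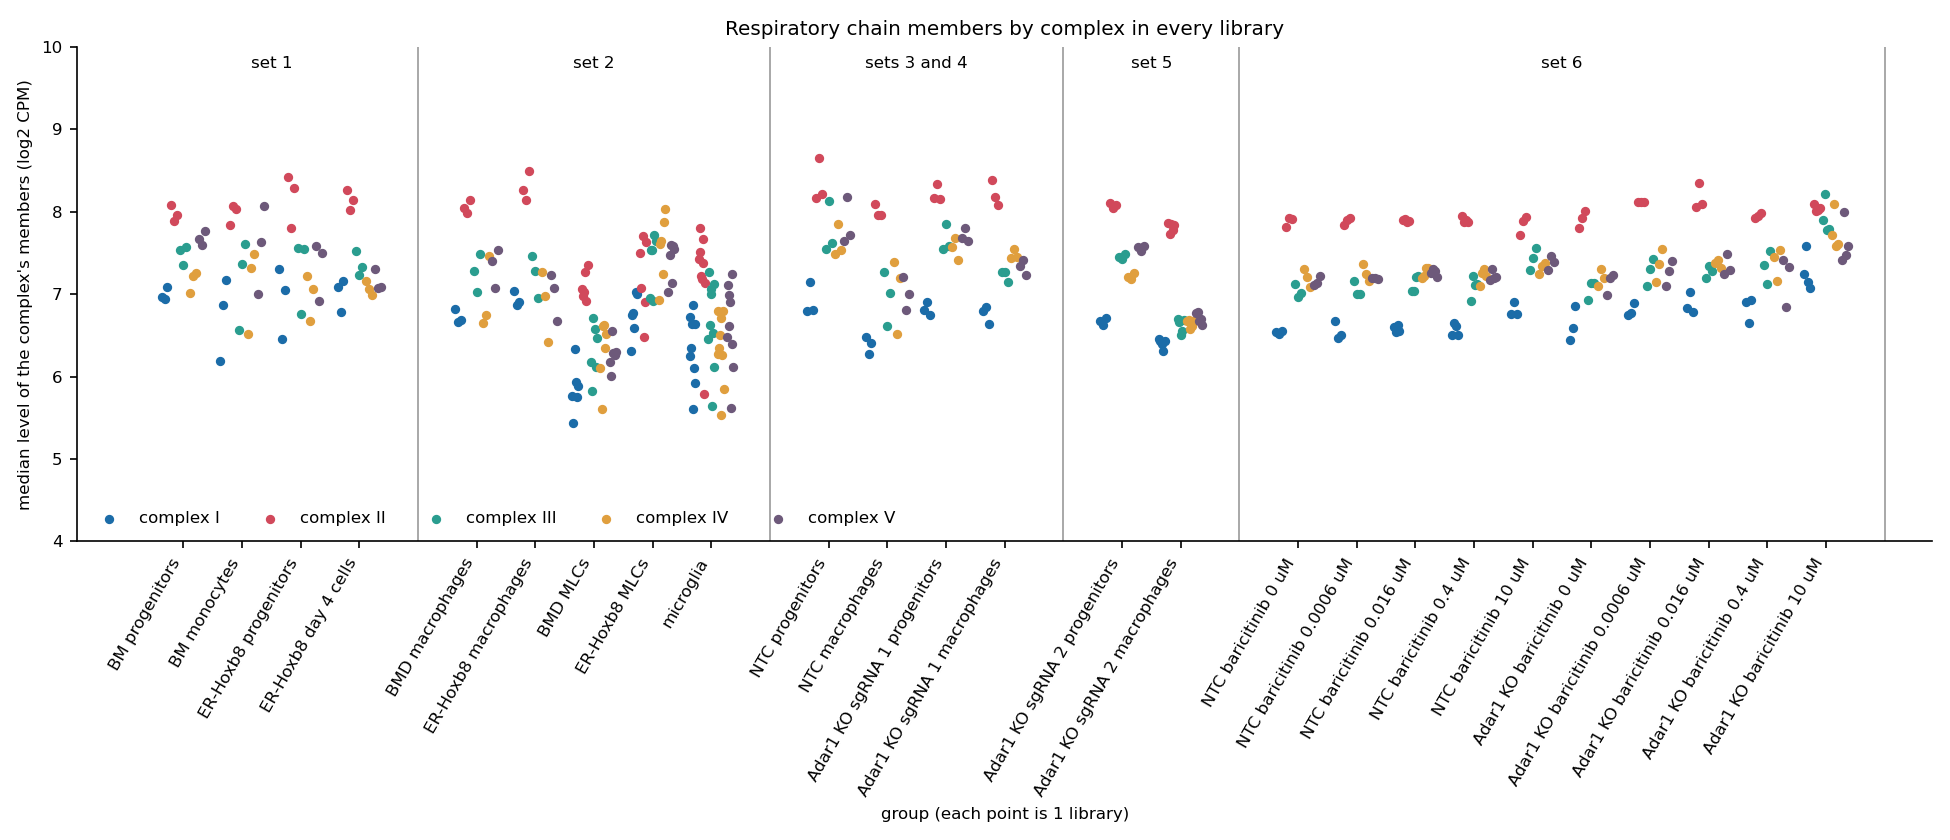
Median log2 CPM of the members of each complex in each library, with panels for the sets of libraries that share one lowest value. In the last panel the complex III median of Adar1 KO cells was 6.93, 7.13 and 7.14 at 0 uM and 7.90, 8.22, 7.78 and 7.79 at 10 uM.

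Between BM monocytes and BM progenitors none of the 76 members was called by limma (0 called, 13.7% of all genes called), and 8 members had an unadjusted p under 0.05. Other settings did call members: 6, all lower, after quantile scaling (22.4% of all genes called), 13 with weights per library (43.1%) and 5 of 75 tested with these groups alone in the fit (34.0%). The median member log2FC was -0.08 and that of all 12134 genes was -0.09, but the members' median ran from -0.29 without BM monocyte replicate 3 to 0.17 without replicate 1, so its sign rested on 1 library. By complex the medians were -0.09 for complex I, -0.09 for complex II, -0.20 for complex III, -0.02 for complex IV and -0.14 for complex V. Without BM monocyte replicate 2 the count became 1 (6.73% of all genes called). The members' median in the BM monocyte libraries ran over 6.53, 7.16 and 7.31 log2 CPM against 7.07, 7.19 and 7.21 in BM progenitors.

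Libraries labelled ER-Hoxb8 progenitors differed from BM progenitors in 3 members, 1 higher and 2 lower, while 25.6% of all genes were called (11.3% higher, 14.3% lower). Members had a median log2FC of -0.08, equal to that of all genes, and 73 members were not called. That median ran from -0.21 without ER-Hoxb8 progenitor replicate 3 to 0.10 without replicate 2, so its sign rested on 1 library, and it was -0.37 after quantile scaling. The count was 1 without BM progenitor replicate 1 (18.2% of all genes called) and 0 without BM progenitor replicate 3 (16.8%). It was 7 without ER-Hoxb8 progenitor replicate 3 (35.9%). Quantile scaling gave 2 higher and 7 lower and moved the all-gene median by 0.13.

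Ndufs8, an iron-sulfur subunit of the complex I arm that faces the matrix, rose in those libraries (log2FC 1.19, SE 0.34, adjusted p 0.0226). It stood at 3.67, 4.22 and 4.13 log2 CPM in BM progenitors and 5.65, 4.68 and 5.27 in ER-Hoxb8 progenitors, with no overlap. The call was lost without BM progenitor replicate 1 (1.02), BM progenitor replicate 3 (1.25) or ER-Hoxb8 progenitor replicate 1 (0.97).

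Atp5h, a stalk subunit of complex V, fell (log2FC -0.87, SE 0.22, adjusted p 0.0134), from 7.79, 7.93 and 8.02 to 7.17, 6.80 and 7.16, again with no overlap, and was not called without BM progenitor replicate 3 (-0.82). Atp5k, the small e subunit at which complex V pairs into dimers, also fell (log2FC -0.87, SE 0.27, adjusted p 0.0367), from 6.53, 6.03 and 6.59 to 5.48, 5.12 and 5.93. Its call was lost without BM progenitor replicate 1 (-0.80), BM progenitor replicate 3 (-0.77), ER-Hoxb8 progenitor replicate 1 (-0.85) or replicate 2 (-0.68), and with no filter on level (-0.87). With these groups alone in the fit none of Ndufs8, Atp5h and Atp5k was called, nor any other member (16.9% of all genes called).

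Between day 4 cells and ER-Hoxb8 progenitors no member was called by limma (0 called, 0% of all genes called), and 1 member had an unadjusted p under 0.05. That member was Cox7a1 (log2FC 1.48), at 0.05, 0.81 and 0.16 log2 CPM in the progenitors and 2.44, 1.52 and 1.50 at day 4. Without ER-Hoxb8 progenitor replicate 2 the count was 2 and 11.1% of all genes were called, so the absence of calls rested on that library. The median of the members was 0.01 and ran from -0.18 without replicate 2 to 0.17 without replicate 1.

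ER-Hoxb8 macrophages and BMD macrophages, compared in a fit of their own, had no member called by limma (0 called, 1.61% of all genes called), though 6 were called with weights per library (22.5% of all genes). Unadjusted p was under 0.05 for 8 members, the median member log2FC was 0.05 and that of the 10859 genes tested was 0.02. Without ER-Hoxb8 macrophage replicate 1 that median was -0.05.

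**Figure D2:**
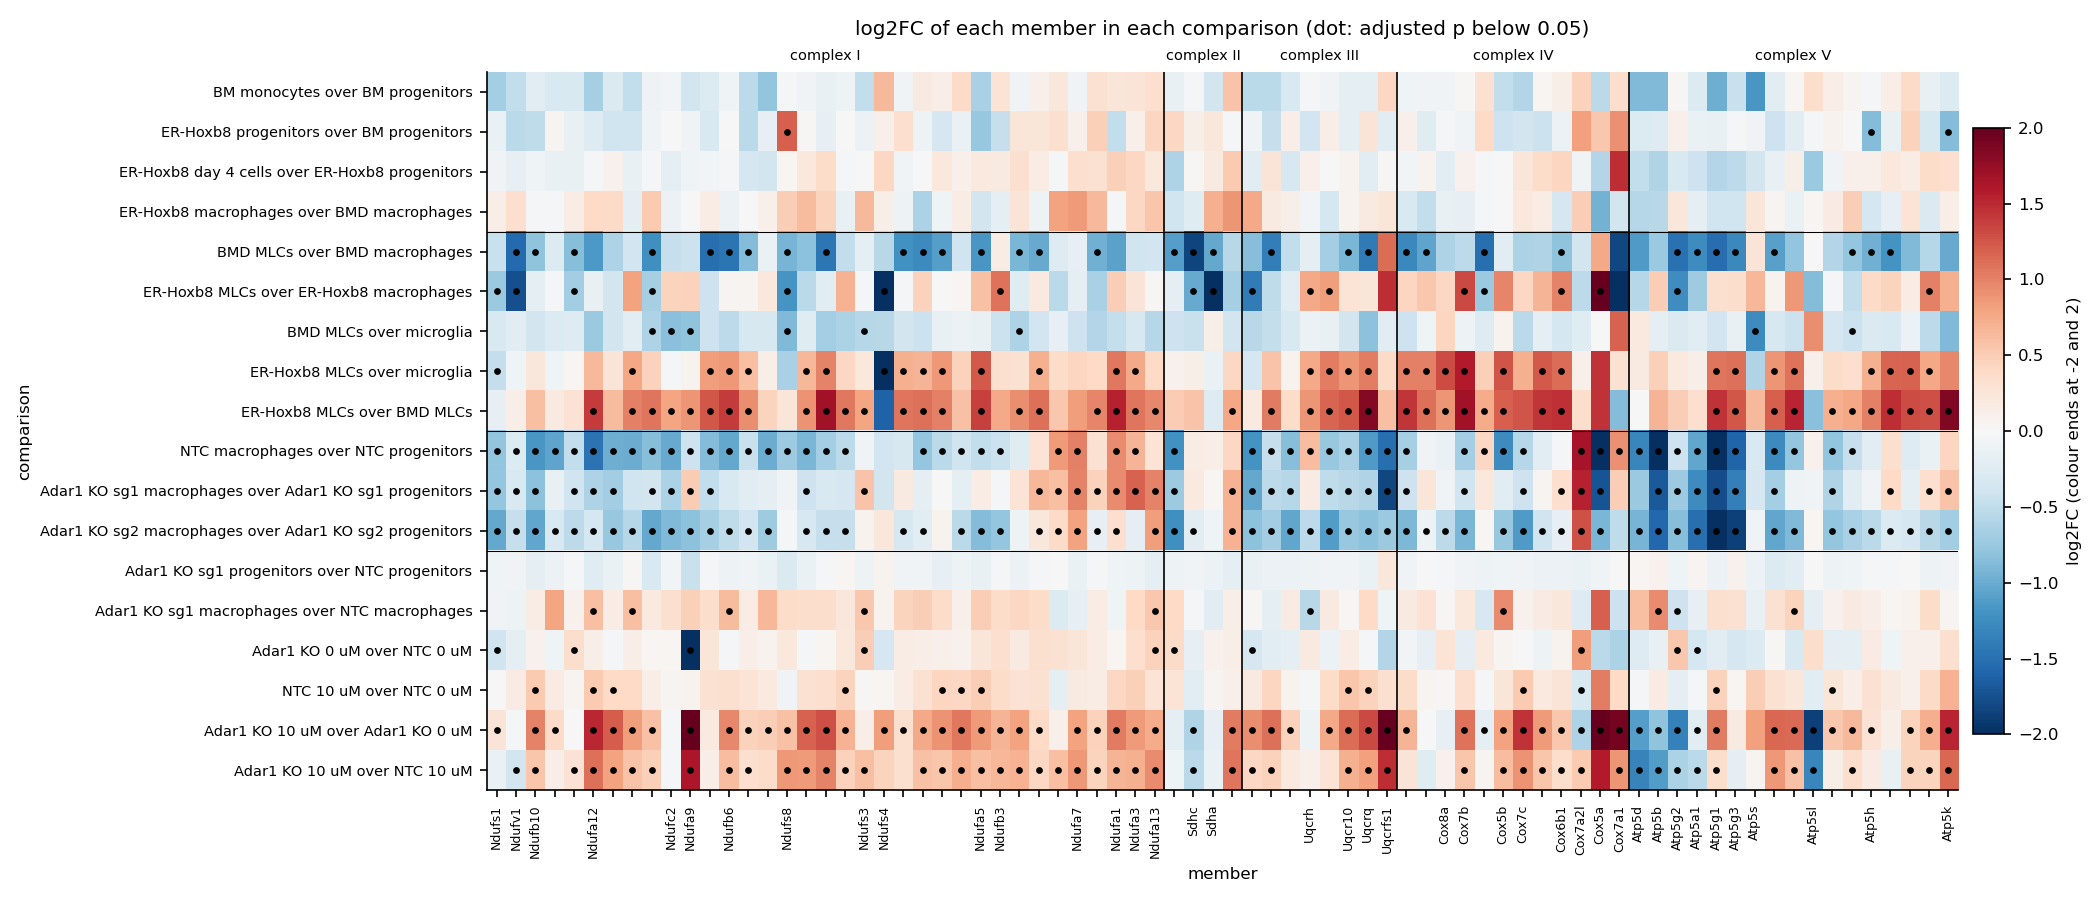
Log2FC of each member in 18 comparisons, ordered in each complex by the median over them and named where largest changes were called, with colour ending at -2 and 2 and a dot where adjusted p was below 0.05. Dots are dense in the differentiation comparisons (55, 44 and 65 members, with 71.5%, 71.1% and 81.1% of all genes called). They are dense in others too, among them Adar1 KO cells at 10 over 0 uM (62 members, 65% of all genes). They are absent in 4 comparisons, among them day 4 cells over ER-Hoxb8 progenitors.

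BMD MLCs held less of 34 members than BMD macrophages and more of none (30.7% of all genes called, 16.9% higher and 13.8% lower). Across the members the median log2FC was -0.83 against -0.01 for all 12647 genes, and 5 of the 76 members had a positive log2FC. Medians by complex were -0.81 for complex I, -1.06 for complex II, -0.76 for complex III, -0.62 for complex IV and -0.97 for complex V. The count was 20 without BMD macrophage replicate 3 (19.6% of all genes called), and quantile scaling gave 21 (30.1%) with a median of -0.52. Weights per library gave 58, 2 of them higher (63.3%). Among the 42 members not called, Uqcrfs1 (1.12) and Cox5a (0.75) had the largest positive log2FC.

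ER-Hoxb8 MLCs differed from ER-Hoxb8 macrophages in 18 members, 7 higher and 11 lower (34.7% of all genes called, 16.6% higher and 18.1% lower). As a group the members had a median log2FC of 0.04 against -0.15 for all genes, with complex medians of -0.04, -0.84, 0.26, 0.49 and 0.33 for complexes I to V. That of the members ran from -0.07 without ER-Hoxb8 MLC replicate 5 to 0.16 without replicate 1. The higher members were 1 of complex I, 2 of complex III, 3 of complex IV and 1 of complex V, and the lower were 6, 2, 1, 1 and 1 of complexes I to V. Quantile scaling turned the split to 13 higher and 4 lower (median 0.27) and moved the all-gene median by 0.13. The count was 9 without ER-Hoxb8 macrophage replicate 2 (24.6% of all genes called) and 11 without replicate 3 (26.7%). It was 9 with these groups alone in the fit (25.4%). The 3 ER-Hoxb8 MLC libraries named GFPHox (replicates 1 to 3) gave 11 members, 2 of them higher (median -0.12, 26.3% of all genes called). The 3 named WTHox (replicates 4 to 6) gave 18, 9 of them higher (median 0.27, 37.2% of all genes).

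Of complex I, Ndufv1, which carries the NADH site, fell in BMD MLCs (log2FC -1.55, SE 0.34, adjusted p 0.00123) and in ER-Hoxb8 MLCs (log2FC -1.75, SE 0.34, adjusted p 0.000321). It was 7.17, 6.90 and 7.01 log2 CPM in BMD macrophages and 4.70 to 5.83 with a median of 5.57 in BMD MLCs. In ER-Hoxb8 macrophages it was 7.22, 7.23 and 7.62, and in ER-Hoxb8 MLCs 4.54 to 6.13 with a median of 5.72. Neither pair of groups overlapped, and microglia (4.64 to 6.33, median 5.79) overlapped both kinds of MLCs.

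Ndufs4, an accessory subunit needed for the NADH module to join, fell in ER-Hoxb8 MLCs against ER-Hoxb8 macrophages (log2FC -2.29, SE 0.69, adjusted p 0.0131). The 6 MLC libraries were 2.43, -1.71, -0.42, 0.16, 0.02 and 2.93 log2 CPM and the macrophages 2.85, 3.21 and 2.50, so 1 MLC library lay inside the range of the macrophages. Without ER-Hoxb8 macrophage replicate 2 the call was lost (-2.11), as was that of Ndufb3 (1.01), a membrane-arm subunit that rose with all libraries in (log2FC 1.08, SE 0.34, adjusted p 0.0162). With these groups alone in the fit neither was called, and with GFPHox libraries alone Ndufb3 was not called (0.89). Ndufs8 (-1.17), Ndufs1 (-0.74), Ndufs7 (-0.70) and Ndufb5 (-0.67) fell as well, Ndufs1 not after quantile scaling (-0.49).

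In BMD MLCs the complex I members that fell beside Ndufv1 were Ndufs6 (-1.51), Ndufb6 (-1.45), Ndufc1 (-1.44), Ndufa11 (-1.28), Ndufb5 (-1.22), Ndufs5 (-1.21), Ndufa5 (-1.16), Ndufb7 (-1.10), Ndufa2 (-1.01), Ndufv3 (-0.97), Ndufs8 (-0.92), Ndufa8 (-0.92), Ndufb9 (-0.87), Ndufs7 (-0.85) and Ndufb10 (-0.81). Ndufs1, the largest subunit of complex I, was not called there (-0.45).

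Complex II showed 3 of 4 members lower in BMD MLCs than in BMD macrophages. Sdhc, a membrane anchor, fell the furthest (log2FC -1.83, SE 0.32, adjusted p 0.000126), from 7.39, 7.02 and 7.63 log2 CPM to 5.15 to 5.89 with a median of 5.44, and in ER-Hoxb8 MLCs it fell by 1.01 (adjusted p 0.0158). Sdhd, the other anchor, fell by 1.10 in BMD MLCs.

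Sdha, the flavoprotein that oxidises succinate, fell by 2.00 in ER-Hoxb8 MLCs (SE 0.30, adjusted p 1.73e-05) and in BMD MLCs (log2FC -1.02, adjusted p 0.0122). It was 9.45, 9.41 and 9.86 log2 CPM in ER-Hoxb8 macrophages and 7.06 to 8.06 with a median of 7.52 in ER-Hoxb8 MLCs. BMD macrophages held 9.00, 8.98 and 8.61 and BMD MLCs 7.58 to 8.02 with a median of 7.90, with no overlap in either pair, and the BMD call was lost without BMD macrophage replicate 1 (-0.95) and after quantile scaling (-0.73). Sdhb, the iron-sulfur subunit, was not called in BMD MLCs (-0.55).

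In complex III the lower members of BMD MLCs were Uqcrq (-1.41), Uqcr11 (-1.39) and Uqcr10 (-0.91), all small subunits. In ER-Hoxb8 MLCs Uqcrc1, a core protein, fell (-1.41), from 9.42 to 9.81 log2 CPM in ER-Hoxb8 macrophages to 7.77 to 9.18, while Uqcrb (0.84) and Uqcrh (0.75) rose. Uqcrc1 was not called in BMD MLCs (-0.85).

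In complex IV, Cox4i1, the regulatory subunit 4, fell in BMD MLCs (log2FC -1.52, adjusted p 7.59e-05), from 9.49, 9.63 and 9.39 to 7.81 to 8.20 log2 CPM with a median of 7.92. Cox7a2 (-1.29), Cox6a1 (-1.05) and Cox6b1 (-0.81) fell with it. Cox4i1 also fell in ER-Hoxb8 MLCs (log2FC -0.75, adjusted p 0.0236), but was not called there without ER-Hoxb8 macrophage replicate 1 (-0.68), replicate 2 (-0.71) or ER-Hoxb8 MLC replicate 4 (-0.63). Nor was it called after quantile scaling (-0.60), with replicate number as a block (-0.64), with GFPHox libraries alone (-0.69) or with these groups alone in the fit.

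Cox5a, a matrix-facing subunit, rose in ER-Hoxb8 MLCs (log2FC 3.14, SE 0.86, adjusted p 0.00644). The macrophages held 3.49, 2.72 and 2.68 log2 CPM and the MLCs 3.56, 5.70, 6.59, 5.99, 7.54 and 7.23, with no overlap. BMD macrophages held 2.12, 3.87 and 5.72, and Cox5a shares 47.2% of its 31-base words with other genes, mostly Gm26631 (34.5%), annotated as a bidirectional promoter lncRNA. Gm26631 is not among the deposited genes. Cox7b (log2FC 1.32, SE 0.38, adjusted p 0.00835) and Cox6b1 (0.99) rose too. With GFPHox libraries alone Cox5a (2.32) and Cox7b (1.17) were not called.

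In complex V, Atp5g1, 1 of 3 genes for the c-ring protein, fell in BMD MLCs (log2FC -1.52, SE 0.30, adjusted p 0.000403), from 8.02, 7.28 and 8.01 log2 CPM to 6.01 to 6.55 with a median of 6.22. The other c-ring genes fell too, Atp5g2 by 1.49 and Atp5g3 by 1.29, as did the catalytic-head subunit Atp5a1 (-1.25, adjusted p 0.00812). Atp5e (-1.19), Atp5o (-1.08), Atp5h (-0.97) and Atp5f1 (-0.78) completed the 8, and Atp5b, the catalytic subunit, was not called (-0.74). In ER-Hoxb8 MLCs Atp5g2 fell (-1.24) and Atp5j2 rose (1.00).

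**Figure D3:**
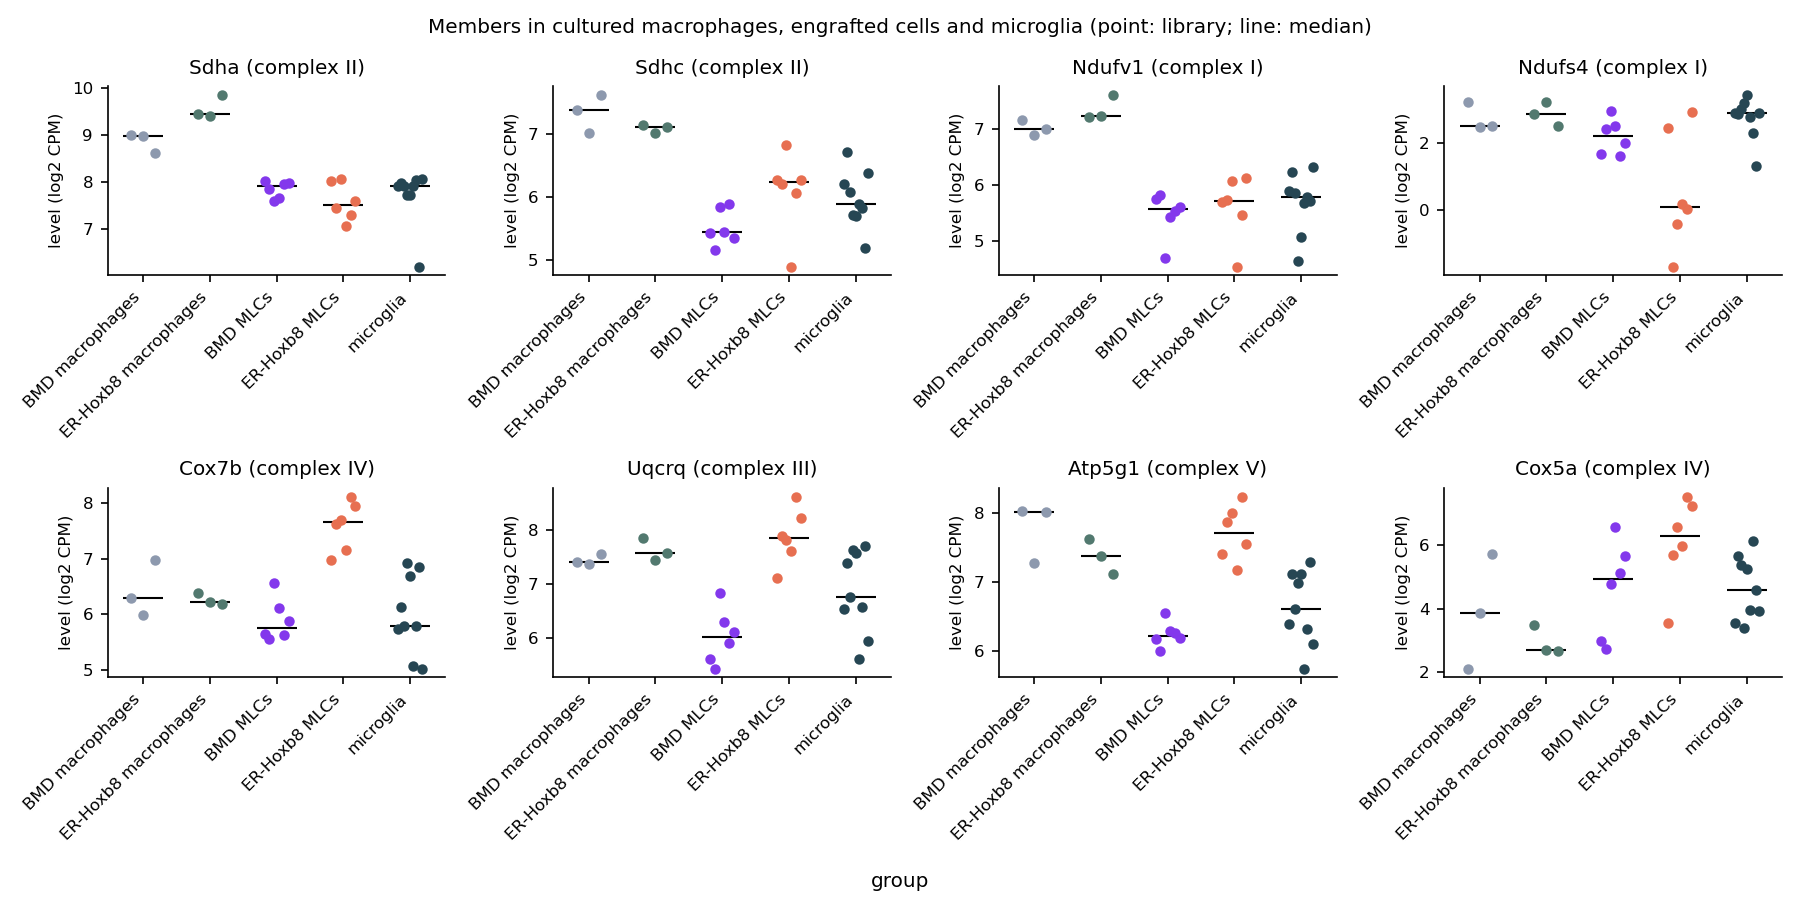
Log2 CPM of 8 members in macrophages, MLCs and microglia, with a point for each library and a line at the median. Sdha had medians of 7.90 in BMD MLCs and 7.52 in ER-Hoxb8 MLCs, and Cox7b of 5.76 and 7.66.

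Against microglia, BMD MLCs were lower in 8 members and higher in none (20.4% of all genes called, 10.8% higher and 9.54% lower). The median member log2FC was -0.35 and that of all genes 0.06, 6 members had a positive log2FC, and quantile scaling moved the all-gene median by -0.11. The 8 were 6 members of complex I and 2 counted in complex V by name, Atp5f1 and Atp5s, of which Atp5s is not a subunit. The count was 5 without BMD MLC replicate 1 or 4 or microglia replicate 2, 3, 4 or 5 (17.5% to 19.3% of all genes called). It was 4 without BMD MLC replicate 2 (17.8%). It was 15 with weights per library (41.1% of all genes called), 5 after quantile scaling (23.3%) and 5 with no filter on level (12.1%).

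Ndufc2, a membrane-arm subunit, had the lowest adjusted p of these (log2FC -0.84, SE 0.18, adjusted p 0.00134), at 5.53 to 6.33 log2 CPM (median 6.03) in BMD MLCs and 6.09 to 7.42 (median 6.85) in microglia, with overlap. Ndufs8 (log2FC -0.89, adjusted p 0.0146) was 3.71 to 4.46 (median 4.01) in BMD MLCs and 4.58 to 5.40 (median 4.96) in microglia, without overlap. Ndufa9 (-0.81), Ndufa8 (-0.63), Ndufb5 (-0.62), Ndufs3 (-0.57) and Atp5f1 (-0.43) were the next.

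Atp5s had the largest log2FC against microglia (-1.25, SE 0.44, adjusted p 0.0453), at 0.36 to 3.64 log2 CPM (median 2.66) in BMD MLCs and 2.34 to 4.98 (median 3.58) in microglia. Its call was lost without BMD MLC replicate 1 (-1.26), 2 (-1.32), 3 (-0.83) or 4 (-1.26). It was also lost without microglia replicate 1 (-1.27), 2 (-1.29), 3 (-1.18), 4 (-1.20), 5 (-1.21), 6 (-1.28) or 8 (-1.09), with weights per library (-0.69), with no filter on level, and with these groups alone in the fit.

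ER-Hoxb8 MLCs differed from microglia in 34 members, 32 higher and 2 lower (33.8% of all genes called, 14.9% higher and 18.9% lower). Members had a median log2FC of 0.48 against -0.10 for all genes, and 67 members had a positive log2FC. Complex IV had the highest median (1.07), followed by complex V (0.71), complex III (0.67), complex I (0.42) and complex II (0.11). The higher members were 13 of complex I, 4 of complex III, 7 of complex IV and 8 of complex V, and no member of complex II was called. With GFPHox libraries as the ER-Hoxb8 MLCs 14 members were called, 12 of them higher (26.7% of all genes called). With WTHox libraries 38 were called, 36 of them higher (35% of all genes).

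Cox7b, a small membrane subunit of complex IV, was the highest of these over microglia (log2FC 1.58, SE 0.28, adjusted p 6.75e-05). It lay at 6.97 to 8.12 log2 CPM (median 7.66) in ER-Hoxb8 MLCs and 5.02 to 6.92 (median 5.79) in microglia, with no overlap. Cox8a (log2FC 1.31, SE 0.27, adjusted p 0.000334) and Cox5b (log2FC 1.26, SE 0.30, adjusted p 0.00174) were next. Ndufs4 (log2FC -2.17, SE 0.52, adjusted p 0.00175; microglia 1.30 to 3.44) and Ndufs1 (log2FC -0.47, SE 0.15, adjusted p 0.0164) were the pair that fell. Ndufs1 was not called with weights per library (-0.36), with GFPHox libraries alone (-0.41) or with these groups alone in the fit, and Cox5b not with GFPHox libraries alone (0.77).

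ER-Hoxb8 MLCs held more of 47 members than BMD MLCs and less of none (15.1% of all genes called, 6.87% higher and 8.22% lower). Across the members the median log2FC was 0.92 while that of all genes was -0.22, and 70 members had a positive log2FC; the 6 negative were Ndufs4 (-1.62), Cox7a1 (-0.88), Atp5sl (-0.83), Sdha (-0.26), Ndufs1 (-0.17) and Atp5d (-0.01), none called. Those called were 22 members of complex I, 1 of complex II, 5 of complex III, 8 of complex IV and 11 of complex V, with medians of 0.92, 0.54, 0.96, 1.22 and 1.00. Quantile scaling gave 41 with a median of 0.81 and moved the all-gene median by 0.18. With GFPHox libraries 30 members were called, 29 of them higher (median 0.77, 14.2% of all genes called). With WTHox libraries 49 were called (median 1.12, 16.6% of all genes).

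Uqcrq, a small subunit of complex III, was 7.11 to 8.62 log2 CPM (median 7.85) in ER-Hoxb8 MLCs and 5.44 to 6.83 (median 6.02) in BMD MLCs, with no overlap (log2FC 1.84, SE 0.33, adjusted p 0.000292). Atp5k had a log2FC of 1.85 (SE 0.43, adjusted p 0.00436), at 5.36 to 7.38 (median 6.52) against 4.03 to 5.59 (median 4.41), with overlap, and was not called with GFPHox libraries alone (1.45). For Cox7b the log2FC was 1.69 (SE 0.31, adjusted p 0.000408), and BMD MLCs lay at 5.55 to 6.57 (median 5.76).

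Atp5g1 rose by 1.45 in ER-Hoxb8 MLCs over BMD MLCs and Cox4i1 by 0.74, the latter not called after quantile scaling (0.47) or with WTHox libraries alone (0.68). Sdhb rose by 0.78 (adjusted p 0.0378), at 8.06 to 9.60 (median 9.01) against 7.80 to 8.40 (median 8.10). The Sdhb call was lost without BMD MLC replicate 1 (0.74), 2 (0.72), 4 (0.80), 5 (0.76) or 6 (0.80), and without ER-Hoxb8 MLC replicate 3 (0.78), 4 (0.72), 5 (0.70) or 6 (0.63). It was also lost after quantile scaling (0.49), with weights per library (0.53), with GFPHox libraries alone (0.31), with no filter on level and with these groups alone in the fit.

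Whether the log2FC of MLCs over cultured macrophages differed between the ER-Hoxb8 and BMD cells was tested as an interaction. In it 8 members were called, all more positive in ER-Hoxb8 cells (3.23% of all genes called, 2.18% higher and 1.05% lower). The median member difference was 0.91 and that of all genes -0.20, which quantile scaling moved by 0.12. The largest among members called were Atp5g1 (1.85, SE 0.42, adjusted p 0.0116), Cox6b1 (1.80, adjusted p 0.0154) and Ndufa5 (1.74, adjusted p 0.0416). Ndufa11 (1.74), Cox7a2 (1.73), Atp5g3 (1.64), Uqcrb (1.52) and Atp5h (1.34) followed.

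That count of 8 leaned on single libraries. It was 1 without BMD macrophage replicate 3 (1.79% of all genes called) or ER-Hoxb8 macrophage replicate 3 (1.99%). It was 3 without BMD macrophage replicate 1, BMD MLC replicate 1 or 2, or ER-Hoxb8 MLC replicate 3 or 5 (2.06% to 2.94%). It was 4 without ER-Hoxb8 macrophage replicate 2 or BMD MLC replicate 5 or 6 (2.2% to 2.54%). It was 5 without BMD MLC replicate 4 (2.6%) or ER-Hoxb8 MLC replicate 6 (3.38%). Without microglia replicate 8, which is in neither arm but enters the estimate of spread, it was 14, of which 13 were more positive and 1 more negative (5.30% of all genes called). Weights per library gave 26, 25 of them more positive (22.8%), and no filter on level gave 5 (1.98%).

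Neutrophil and proliferation markers differed between the same brain libraries. The 5 neutrophil markers (S100a8, S100a9, Ly6g, Camp, Ltf; S100a8 the most abundant) summed to 4118, 2602, 16390, 20575, 17598 and 18738 CPM in BMD MLCs and 458, 143, 197, 11283, 26213 and 2422 CPM in ER-Hoxb8 MLCs. Of the 4 proliferation markers (Top2a the most abundant in every ER-Hoxb8 MLC library), 2 were called higher in ER-Hoxb8 MLCs than in BMD MLCs and 4 higher than in microglia. They summed to 169, 340, 464, 345, 854 and 149 CPM in ER-Hoxb8 MLCs, 43.2, 38.4, 134, 123, 160 and 92.5 CPM in BMD MLCs and 14.3, 23.8, 43.9, 45.6, 73.3, 15.4, 19.8, 38.5 and 12.5 CPM in microglia. Their part in the members' result was not tested.

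Genes of microglia and of other cells were read in the same libraries. P2ry12, a receptor typical of microglia, was 14.03 to 14.84 log2 CPM in microglia, 8.11 to 11.39 in BMD MLCs and 4.76 to 10.57 in ER-Hoxb8 MLCs, lowest in replicate 6. Sall1, a transcription factor that marks microglia in the adult brain, was 8.31 to 8.91 in microglia and no higher than 2.66 in any MLC library. Both kinds of MLCs thus lay below microglia in both genes.

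The 3 endothelium markers (Cldn5, Pecam1, Flt1) summed to 55.4, 89.9, 74.8, 44.4, 59.7 and 90.6 CPM in ER-Hoxb8 MLCs, 24.8, 23.0, 18.9, 28.2, 10.6 and 22.6 CPM in BMD MLCs and 32.0 to 68.1 CPM in microglia. Pecam1 and Flt1 were called higher in ER-Hoxb8 than in BMD MLCs, while Cldn5 was too low to test and stood at the lowest value of the set in every MLC library except ER-Hoxb8 MLC replicate 2. Microglia replicate 8 held 27.1 CPM of the 4 neuron markers (Snap25, Syt1, Rbfox3, Nrgn) against 0.801 to 3.17 CPM in the other microglia. Without it 40 members were called for ER-Hoxb8 MLCs (40.5% of all genes called) and 8 for BMD MLCs (22.2%) over microglia.

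Neuron markers came to 8.10 CPM or less in every MLC library. Of the 4 astrocyte markers (Aqp4, Gfap, Slc1a3, Aldoc) Slc1a3 was the most abundant in microglia, where they summed to 169 to 507 CPM, against 20.3 to 39.3 CPM in BMD MLCs and 33.2 to 100 CPM in ER-Hoxb8 MLCs, and Aqp4 stood at the lowest value in all of these libraries but ER-Hoxb8 MLC replicate 1. By the paper's methods brain cells were stained for leukocyte surface markers and sorted. The part of neurons, astrocytes and endothelium in the members' result was not tested.

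Genes listed by name as cytosolic ribosomal proteins (Rpl or Rps and a digit) were read in the brain set too. The list also holds kinases (Rps6ka1, Rps6kb1 and related names) and Rps19bp1, which are not ribosomal proteins. Counts and medians below are of the tested genes of this whole list. Of 88 tested, 47 were higher and 1 lower in ER-Hoxb8 than in BMD MLCs (median 0.76; all genes 6.87% and 8.22%), and 63 were higher and 4 lower in ER-Hoxb8 MLCs than in microglia (median 0.88; all genes 14.9% and 18.9%). Over their macrophages 41 genes of the list were higher and 3 lower in ER-Hoxb8 MLCs (median 0.82, all genes 16.6% and 18.1%). In BMD MLCs 2 were higher and 12 lower (median -0.38, all genes 16.9% and 13.8%).

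Transcript length, taken as the median over the annotated coding transcripts of a gene and so short for some large subunits, was set beside the brain comparisons. In ER-Hoxb8 MLCs over BMD MLCs the median was 1.06 for the 56 members under 1000 bases and 0.64 for the 20 members of 1000 bases or more, against 0.03 and -0.27 for all genes split in the same way, with 38 and 9 members called higher. Over microglia the medians were 0.71 and 0.17 (all genes 0.10 and -0.18). In BMD MLCs over BMD macrophages they were -0.92 and -0.51 (all genes -0.24 and 0.00), with 28 and 6 members lower. In ER-Hoxb8 MLCs over ER-Hoxb8 macrophages the medians were 0.11 and -0.04 (all genes -0.06 and -0.23), with 15 of 56 and 3 of 20 called. In BMD MLCs over microglia they were -0.37 and -0.29 (all genes -0.01 and 0.06), with 5 of 56 and 3 of 20 called. For the interaction the medians were 1.03 and 0.35 (7 of 56 and 1 of 20 called). Across members the rank correlation of log2FC with length was -0.46 over BMD MLCs and -0.48 over microglia for ER-Hoxb8 MLCs, and 0.06 for BMD MLCs over microglia, given as description.

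NTC macrophages differed from NTC progenitors in 55 members, 8 higher and 47 lower (71.5% of all genes called, 33.0% higher and 38.5% lower). As a group the members had a median log2FC of -0.50 and that of all 11119 genes was -0.08. With NTC macrophage replicate 2 added the members' median was -0.68 (56 called, 5 of them higher, 73.7% of all genes called). Quantile scaling gave 13 higher and 43 lower. Medians for complexes I to V were -0.50, 0.14, -0.81, -0.18 and -0.47. The lower members were 24 of complex I, 1 of complex II, 7 of complex III, 5 of complex IV and 10 of complex V.

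In Adar1 KO sgRNA 1 cells 44 members differed between macrophages and progenitors, 15 higher and 29 lower (71.1% of all genes called, 34.1% higher and 37.1% lower), with a median of -0.22 (all genes -0.06). In Adar1 KO sgRNA 2 cells 65 differed, 7 higher and 58 lower (81.1% of all genes called, 39.6% higher and 41.5% lower), with a median of -0.53 (all 10776 genes -0.03). By complex the sgRNA 2 medians were -0.38, -0.15, -0.79, -0.52 and -0.78 for complexes I to V.

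These 3 comparisons share no library, so the members can be set side by side. Lower in all 3 were 29 members (10 of complex I, 1 of complex II, 7 of complex III, 4 of complex IV and 7 of complex V), which is 38.2% of members against 29.6% of the 10561 genes tested in all 3. Higher in all 3 were 4 members (5.26%, all genes 25.3%). A further 7 were called in both directions (Atp5e, Atp5j2, Atp5k, Cox6b1, Ndufa9, Ndufv3 and Uqcrh; 9.21%, all genes 3.63%). Called in none were 5, namely Sdha, Ndufa8, Ndufs4, Atp5s and Atp5sl (6.58%, all genes 7.72%). Complex III was lower in all 3 for every member except Uqcrh, which rose by 0.62 in NTC cells and fell by 0.53 in sgRNA 2 cells.

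**Figure D4:**
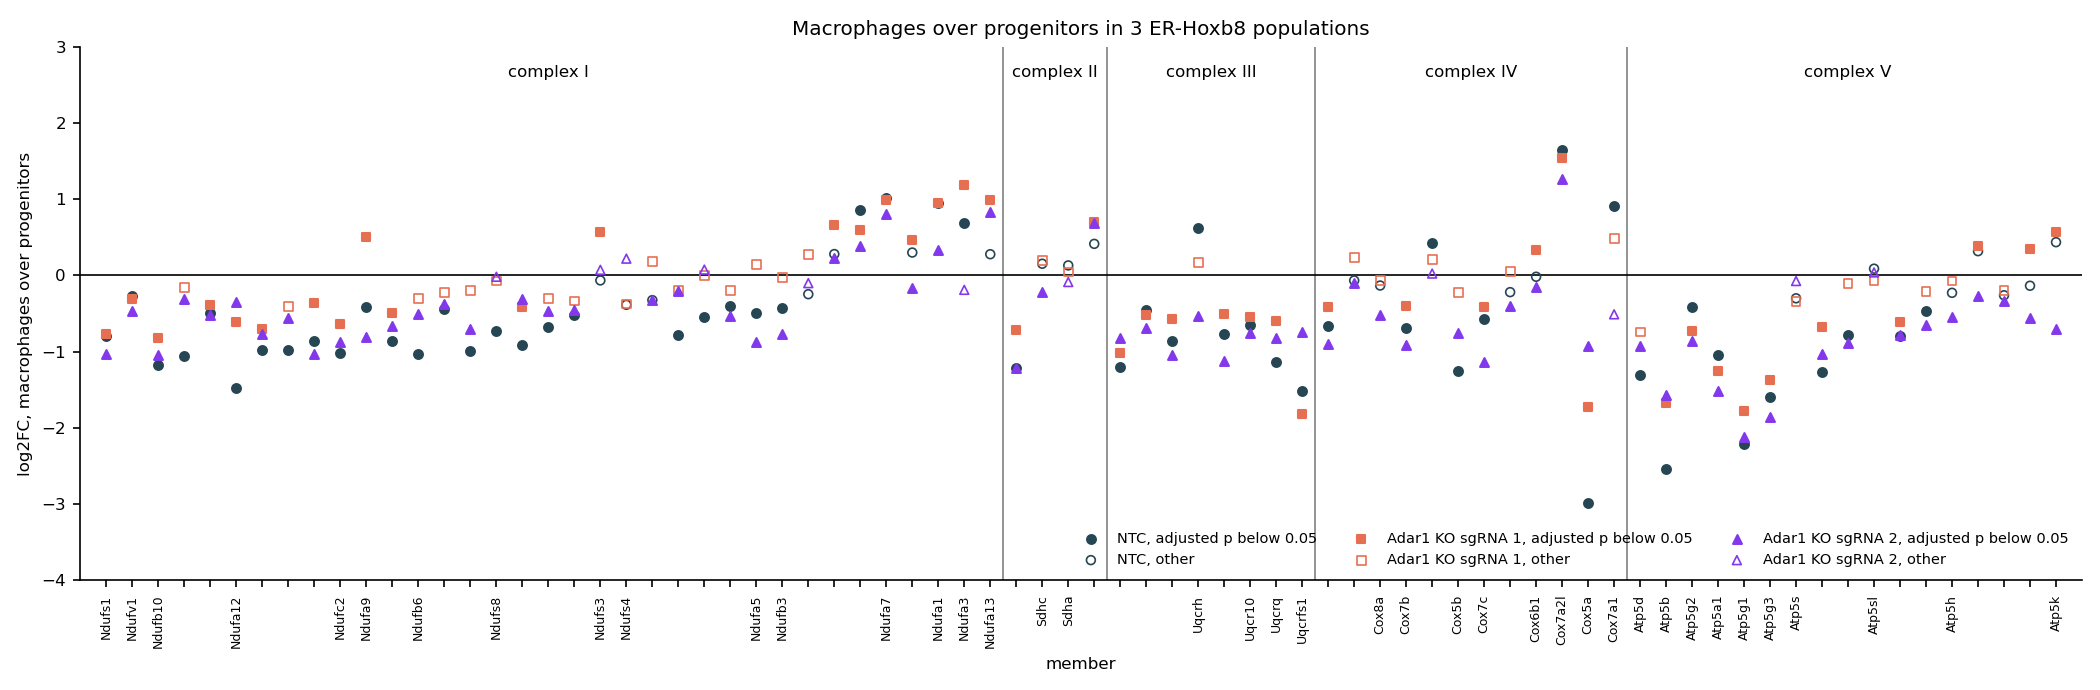
Log2FC of each member, macrophages over progenitors, in NTC, sgRNA 1 and sgRNA 2 cells, in the same order, with filled points where adjusted p was below 0.05. Atp5g1 lay at -2.21, -1.78 and -2.12 and Cox7a2l at 1.65, 1.54 and 1.27.

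Atp5g1 fell from 9.05, 9.42 and 9.02 log2 CPM in NTC progenitors to 7.06 and 6.84 in NTC macrophages (log2FC -2.21, SE 0.13, adjusted p 4.53e-08). In sgRNA 1 cells it fell from 9.02, 9.15 and 8.97 to 7.34, 7.23 and 7.23, and in sgRNA 2 cells from 8.96, 8.92 and 8.88 to 6.75 to 6.82. No macrophage library reached a progenitor library. Atp5g3 fell by 1.60, 1.37 and 1.86 in the same order.

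Cox7a2l, which joins complexes III and IV into a supercomplex, rose the furthest in each of the 3 populations. It went from 7.18, 7.32 and 6.97 log2 CPM to 8.93 and 8.68 in NTC cells (log2FC 1.65, SE 0.13, adjusted p 4.76e-07) and from 7.09, 7.12 and 6.83 to 8.53, 8.57 and 8.56 in sgRNA 1 cells (log2FC 1.54, SE 0.12, adjusted p 2.93e-07). In sgRNA 2 cells it went from 6.80, 6.78 and 6.75 to 8.00 to 8.09 (log2FC 1.27, SE 0.04, adjusted p 2.62e-10).

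The other members higher in all 3 were accessory subunits of complex I: Ndufa7 (1.01, 0.99 and 0.80), Ndufa1 (0.95, 0.94 and 0.33) and Ndufa6 (0.86, 0.60 and 0.38). Ndufa1 was not called in NTC cells with NTC macrophage replicate 2 added (0.56). Ndufa13 (1.00 and 0.83) and Ndufa3 (1.18, sgRNA 1) were among the largest rises in Adar1 KO cells.

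Atp5b fell from 10.46, 10.56 and 10.50 log2 CPM to 7.24 and 8.69 in NTC cells (log2FC -2.54, SE 0.30, adjusted p 1.4e-05), with 8.04 in the macrophage library of its own set, and fell by 1.68 and 1.57 in sgRNA 1 and sgRNA 2 cells. Atp5a1 fell by 1.05, 1.26 and 1.52. Cox5a fell from 5.86, 6.66 and 6.78 to 2.62 and 4.26 in NTC cells (log2FC -2.99, SE 0.41, adjusted p 4.55e-05), by 1.73 in sgRNA 1 cells and by 0.92 in sgRNA 2 cells, where 5.01, 6.15, 5.44, 5.49 and 5.45 followed 6.38, 6.30 and 6.60.

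Uqcrfs1, the Rieske iron-sulfur protein of complex III, fell by 1.51, 1.81 and 0.74, and Uqcrc1 by 1.20, 1.02 and 0.82. In sgRNA 1 cells Uqcrfs1 went from 4.22, 4.20 and 4.56 log2 CPM to 2.49, 2.37 and 2.67 (SE 0.27, adjusted p 8.03e-05). Ndufs1 fell by 0.79, 0.77 and 1.03 and Ndufv1 by 0.27, 0.30 and 0.46, the NTC value of Ndufv1 losing its call without NTC progenitor replicate 2 (-0.20) or NTC macrophage replicate 3 (-0.18), after quantile scaling (-0.12), with weights per library (-0.25) and with these groups alone in the fit.

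Complex II was split. Sdhd fell in all 3 populations (-1.21, -0.72 and -1.22), Sdhb rose in both Adar1 KO populations (0.70 and 0.69) and was not called in NTC cells, and Sdha was not called in any (0.13, 0.05 and -0.09). Cox4i1 rose in NTC cells (0.42, adjusted p 0.0165), a call lost without NTC progenitor replicate 1 (0.33) or NTC macrophage replicate 1 (0.29), after quantile scaling (0.21) or with these groups alone in the fit, and was called in neither Adar1 KO population.

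Between Adar1 KO sgRNA 1 progenitors and NTC progenitors no member was called by limma (0 called, 0.917% of all genes called), and 2 members had an unadjusted p under 0.05. The median member log2FC was -0.09 and that of all genes -0.01, and 9 members had a positive log2FC. Without NTC progenitor replicate 2 the median was 0.03.

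Adar1 KO sgRNA 1 macrophages differed from NTC macrophages in 10 members, 8 higher and 2 lower (21.8% of all genes called, 14.4% higher and 7.32% lower). Members had a median log2FC of 0.18 and that of all genes 0.05, and 30 members had an unadjusted p under 0.05. The count was 1 without NTC macrophage replicate 1 (12% of all genes called) and 4 without sgRNA 1 macrophage replicate 1 or 2 (17.5% and 14.8%). With NTC macrophage replicate 2 added it was 29 (27 higher, 29.8%). It was 22 with weights per library (28.1%), 4 with these groups alone in the fit (18%) and 4 with no filter on level (9.32%). Quantile scaling gave 6 higher and 5 lower and moved the all-gene median by -0.12.

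Ndufb6, a membrane-arm subunit of complex I, rose (log2FC 0.63, SE 0.15, adjusted p 0.00999), at 6.04 and 6.03 log2 CPM in NTC and 6.78, 6.69 and 6.54 in KO macrophages, and was not called without NTC macrophage replicate 1 (0.64). Cox5b, a zinc-binding subunit of complex IV, rose (log2FC 0.95, SE 0.22, adjusted p 0.011) from 5.79 and 6.68 to 7.18, 7.35 and 7.02, and lost its call without the same library (0.50) or with these groups alone in the fit. The other higher members were Ndufa12 (0.61), Ndufb2 (0.61), Ndufa13 (0.54), Ndufs3 (0.53) and Atp5j (0.45).

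Atp5b rose (log2FC 0.95, SE 0.30, adjusted p 0.0437), from 7.24 and 8.69 to 8.71, 9.04 and 9.00, and lost its call without NTC macrophage replicate 1 (0.23) or sgRNA 1 macrophage replicate 1 (1.05), 2 (0.89) or 3 (0.91), and after quantile scaling (0.75). Uqcrh, the hinge protein of complex III, fell (-0.56, adjusted p 0.0176) and lost its call without NTC macrophage replicate 1 (-0.41). Atp5g2 fell (-0.41, adjusted p 0.037) and lost its call without NTC macrophage replicate 1 (-0.27) or sgRNA 1 macrophage replicate 1 (-0.35) or 2 (-0.41). Neither Atp5b nor Atp5g2 was called with no filter on level or with these groups alone in the fit.

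The sgRNA 1 effect differed between macrophages and progenitors for 7 members, all more positive in macrophages (13.6% of all genes called, 9.84% higher and 3.72% lower), with a median difference of 0.28 (all genes 0.08). They were Cox5b (1.03, adjusted p 0.0418), Ndufa9 (0.93, adjusted p 0.0169), Ndufa12 (0.86, adjusted p 0.0397), Ndufb6 (0.73), Ndufa13 (0.72), Atp5j (0.67) and Ndufs3 (0.64). The count was 1 without sgRNA 1 progenitor replicate 1 or 3 or sgRNA 1 macrophage replicate 1 or 2 (9.36% to 11.3% of all genes called). It was 2 without NTC macrophage replicate 1 (9.08%), and 3 without sgRNA 1 progenitor replicate 2 (10.5%) or NTC progenitor replicate 2 (10.6%). With no filter on level it was 1 (5.31% of all genes called). Quantile scaling gave 5 higher and 1 lower and moved the all-gene median by -0.13.

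In the baricitinib series without drug, Adar1 KO cells differed from NTC cells in 10 members, 6 higher and 4 lower (24.9% of all genes called, 11.4% higher and 13.6% lower). Across the members the median log2FC was 0.06 and that of all 11339 genes -0.03, and 21 members had an unadjusted p under 0.05. Quantile scaling gave 4 higher and 10 lower with a median of -0.02, and the median ran from -0.02 without Adar1 KO replicate 3 to 0.13 without replicate 1, so its direction was not stable. Weights per library gave 28 called, 17 of them higher (39.0% of all genes called).

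Cox7a2l rose in these KO cells (log2FC 0.84, SE 0.10, adjusted p 4.65e-07), from 7.57, 7.48 and 7.70 log2 CPM to 8.57, 8.36 and 8.34. Ndufa9, which sits where the matrix and membrane arms of complex I meet, fell (log2FC -2.49, SE 0.58, adjusted p 0.00207), from 3.75, 4.47 and 3.10 to -0.24, 2.24 and 1.84, with no overlap. Ndufs3 (0.49, SE 0.12, adjusted p 0.00485), Ndufa13 (0.47), Sdhd (0.38) and Ndufs7 (0.35) were higher.

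Ndufs1 (-0.40, adjusted p 0.00529) and Atp5a1 (-0.36, adjusted p 0.00265) were lower without drug. Uqcrc1 (-0.34) lost its call without NTC replicate 1 (-0.32) or Adar1 KO replicate 1 (-0.21), and Atp5g2 (log2FC 0.55, SE 0.16, adjusted p 0.0145) without NTC replicate 2 (0.46) or Adar1 KO replicate 1 (0.51). The call of Uqcrc1 was also lost with these groups alone in the fit.

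SgRNA 1 KO and NTC macrophages without drug were thus compared in separate libraries of 2 experiments, and these agreed in part. Ndufa13 and Ndufs3 were higher in both, while Atp5g2 was lower in the first (-0.41) and higher in the drug series (0.55). Ndufa9, lower in the drug series, had a positive log2FC in the first that was not called (0.48, adjusted p 0.0559), and Cox7a2l a negative one (-0.25, not called). Why they differed was not tested.

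At 10 uM, 54 members differed between Adar1 KO and NTC cells, 47 higher and 7 lower (44.5% of all genes called, 21.1% higher and 23.4% lower). As a group the members had a median log2FC of 0.45 while that of all genes was 0.00. Medians were 0.59 for complex I, -0.11 for complex II, 0.44 for complex III, 0.54 for complex IV and 0.11 for complex V. Without Adar1 KO replicate 2 the count was 46 (38.6% of all genes called) and the median 0.37.

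The higher members at 10 uM were led by Ndufa9 (log2FC 1.61, SE 0.54, adjusted p 0.0164), which lost its call without NTC replicate 2 (1.43) or 3 (1.55). Uqcrfs1 (log2FC 1.48, SE 0.39, adjusted p 0.00282), Atp5k (log2FC 1.16, SE 0.27, adjusted p 0.00107) and Sdhb (1.07, adjusted p 2.15e-08) followed. The 7 lower were Atp5d (-1.33, SE 0.19, adjusted p 1.64e-06), Atp5sl (-1.30, adjusted p 6.34e-07), Atp5b (-1.11, adjusted p 5.53e-09), Atp5g2 (-0.64), Sdhc (-0.54), Atp5a1 (-0.54) and Ndufv1 (-0.36). By name 5 of these are counted in complex V, among them Atp5sl, which is not a subunit.

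In NTC cells 10 uM of baricitinib changed 13 members, 12 higher and 1 lower (13.6% of all genes called, 5.77% higher and 7.81% lower). The median member log2FC was 0.25 and that of all genes -0.01, and 32 members had an unadjusted p under 0.05. The count was 2 without NTC 0 uM replicate 1 or NTC 10 uM replicate 2 (5.84% and 6.97% of all genes called). It was 4 without NTC 10 uM replicate 1 or 3 (7.71% and 10.2%). It was 5 without NTC 0 uM replicate 2 or 3 (10.3% and 8.96%). It was 38 with weights per library (31.5% of all genes called), 28 with these groups alone in the fit (22.6%) and 7 with no filter on level (6.44%). Uqcr10 (0.56, SE 0.14, adjusted p 0.00912) and Ndufb10 (0.53, SE 0.12, adjusted p 0.00632) were among the largest, and Ndufa12 (0.52), Ndufa5 (0.50), Uqcrq (0.47), Atp5g1 (0.46), Ndufb4 (0.45), Ndufb7 (0.44), Ndufb11 (0.41), Ndufv2 (0.39) and Atp5c1 (0.24) followed.

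Cox7c (0.53, SE 0.17, adjusted p 0.033) lost its NTC call without NTC 0 uM replicate 1 (0.58), 2 (0.54) or 3 (0.47) or NTC 10 uM replicate 2 (0.56) or 3 (0.42). Cox7a2l was the member that fell in NTC cells (-0.31, SE 0.10, adjusted p 0.0404), and its call was lost without NTC 0 uM replicate 1 (-0.31) or 3 (-0.25) or NTC 10 uM replicate 1 (-0.29), 2 (-0.32) or 3 (-0.31). With no filter on level neither was called.

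In Adar1 KO cells 10 uM of baricitinib changed 62 members, 54 higher and 8 lower (65.0% of all genes called, 33.5% higher and 31.6% lower). Members had a median log2FC of 0.69 and that of all genes 0.05. Without Adar1 KO 10 uM replicate 2 the count was 60 (61.6% of all genes called) with a median of 0.58. Medians were 0.74 for complex I, -0.19 for complex II, 1.02 for complex III, 0.74 for complex IV and 0.45 for complex V. The 14 not called were Ndufv1, Ndufc2, Ndufs7, Ndufa6, Ndufs3, Ndufs6, Sdhd, Sdha, Uqcrh, Cox8a, Cox6a1, Atp5e, Atp5g3 and Atp5s.

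**Figure D5:**
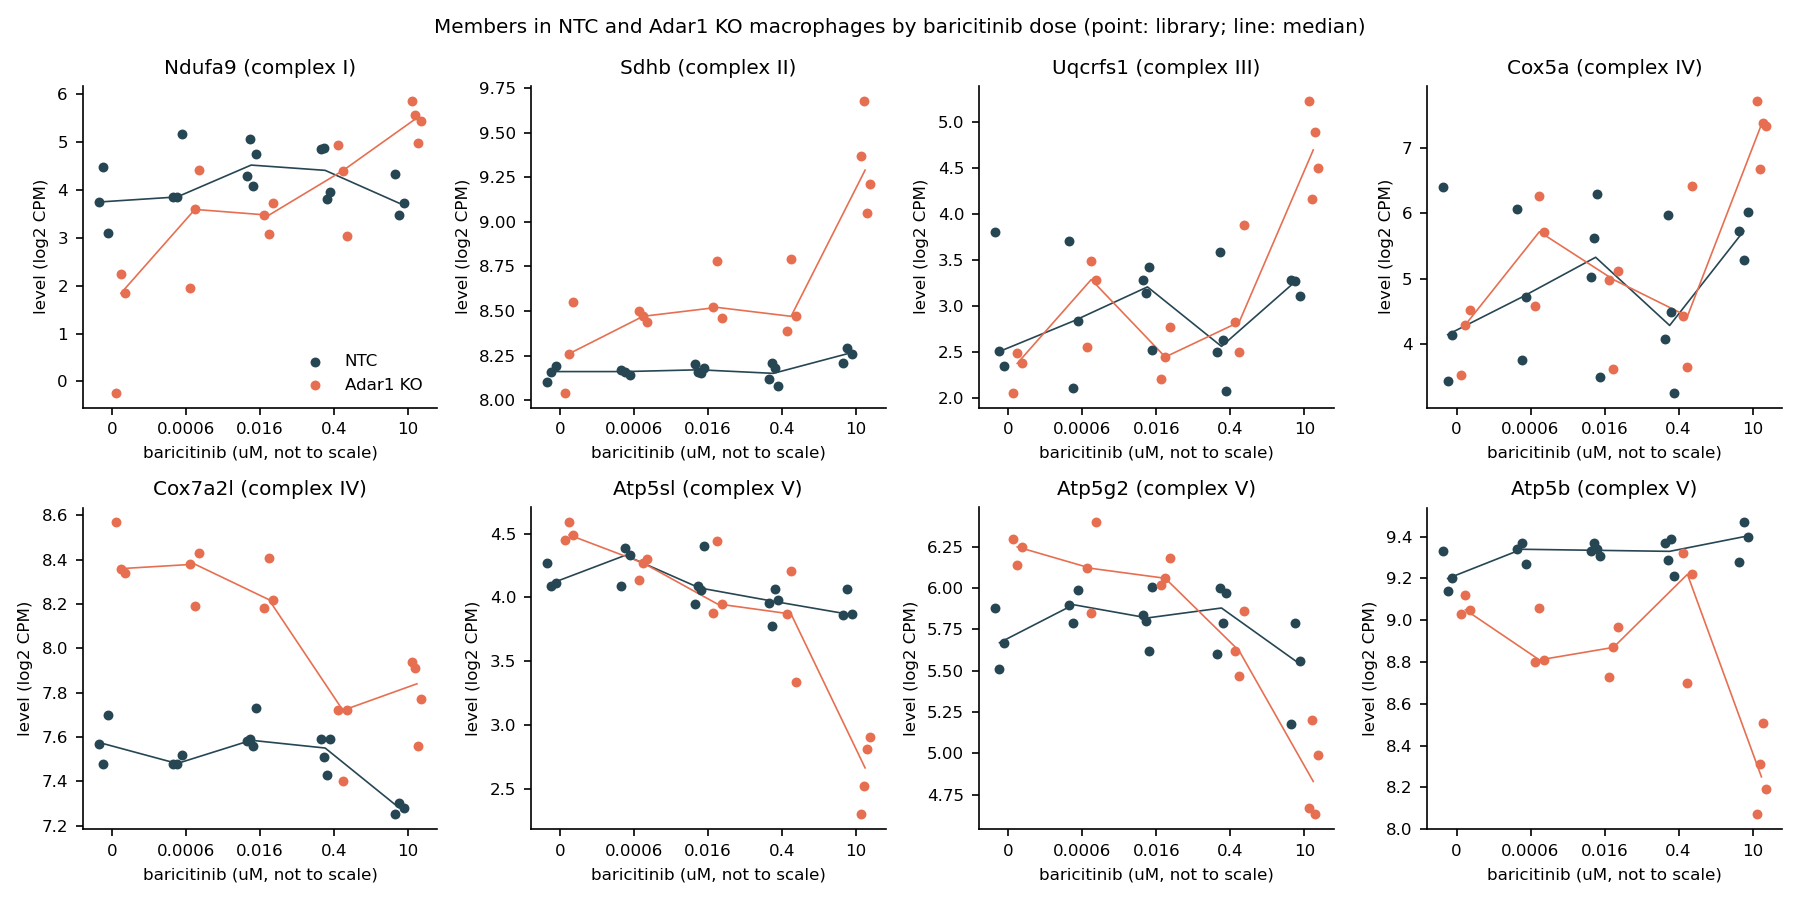
Log2 CPM of 8 members by baricitinib dose in NTC and Adar1 KO cells, with a point for each library and a line at the median. In Adar1 KO cells Ndufa9 went from -0.24, 2.24 and 1.84 at 0 uM to 5.86, 5.57, 4.97 and 5.43 at 10 uM.

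Ndufa9 rose the furthest in Adar1 KO cells (log2FC 4.17, adjusted p 1.43e-07). It was 1.94, 3.59 and 4.41 log2 CPM at 0.0006 uM, 3.47, 3.08 and 3.73 at 0.016 uM, 4.94, 4.40 and 3.03 at 0.4 uM and 5.86, 5.57, 4.97 and 5.43 at 10 uM. In NTC cells at 10 uM it was 4.33, 3.48 and 3.72, inside the spread of NTC cells at 0 uM.

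Complex I had 29 of 35 members higher and 0 lower in Adar1 KO cells at 10 uM. Ndufa12 (1.51), Ndufc1 (1.29), Ndufv2 (1.21) and Ndufb8 (1.19) followed Ndufa9. Ndufs1 (0.26) lost its call without Adar1 KO 0 uM replicate 1 (0.25) or 2 (0.18) or 10 uM replicate 1 (0.19), after quantile scaling (0.24) or with these groups alone in the fit.

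In complex II 1 member rose, 1 fell and 2 were not called. Sdhb rose (1.05, adjusted p 8.13e-09), from 8.04, 8.26 and 8.55 log2 CPM to 9.37, 9.68, 9.05 and 9.21, Sdhc fell (-0.61) from 7.57, 7.52 and 7.26 to 6.80 to 6.89, and Sdha was not called (-0.17, adjusted p 0.0586). NTC cells at 10 uM held 8.21, 8.29 and 8.26 of Sdhb.

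In complex III Uqcrfs1 rose (log2FC 2.39, SE 0.39, adjusted p 5.49e-06), from 2.06, 2.49 and 2.38 log2 CPM to 5.23, 4.16, 4.89 and 4.50, and Uqcrc1 rose by 0.93 (adjusted p 4.08e-09). The remaining complex III members rose too, except Uqcrh. NTC cells at 10 uM held 3.28, 3.27 and 3.11 of Uqcrfs1, below each KO library.

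In complex IV Cox5a rose in KO cells (log2FC 3.15, SE 0.72, adjusted p 0.000372), from 3.53, 4.30 and 4.53 log2 CPM to 7.72, 6.67, 7.38 and 7.33, while NTC cells at 0 uM spread over 6.40, 3.45 and 4.15. Cox7a1 rose by 1.91. Cox7a2l fell (-0.63), from 8.57, 8.36 and 8.34 at 0 uM to 7.94, 7.91, 7.56 and 7.77 at 10 uM, and 7.72, 7.40 and 7.72 at 0.4 uM. Cox4i1 fell (-0.18), a call lost without Adar1 KO 0 uM replicate 2 (-0.17) or 3 (-0.17) or 10 uM replicate 3 (-0.14) or 4 (-0.16), with replicate number as a block (-0.17), with no filter on level or with these groups alone in the fit.

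In complex V, counted by name and so with Atp5sl, 9 members rose and 5 fell in KO cells. Atp5sl fell (log2FC -1.87, SE 0.17, adjusted p 2.52e-10), from 4.45, 4.59 and 4.49 log2 CPM to 2.30, 2.52, 2.81 and 2.91. Atp5g2 fell (log2FC -1.36, SE 0.15, adjusted p 1.22e-08), from 6.30, 6.14 and 6.25 to 4.67, 5.20, 4.63 and 4.99. Atp5d, a central-stalk subunit, fell (log2FC -1.10, SE 0.19, adjusted p 9.88e-06), from 6.50, 6.77 and 6.66 to 5.27, 5.38, 6.00 and 5.51.

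Atp5b fell by 0.80 in KO cells at 10 uM, from 9.03, 9.12 and 9.05 log2 CPM to 8.07, 8.31, 8.51 and 8.19, while NTC cells at 10 uM held 9.28, 9.47 and 9.40. Atp5a1 fell by 0.22, a call lost without Adar1 KO 0 uM replicate 1 (-0.16), after quantile scaling (-0.21) or with these groups alone in the fit. Atp5g1 rose by 1.04 and Atp5k by 1.52, so c-ring genes moved in opposite directions, Atp5g1 up and Atp5g2 down.

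The effect of Adar1 KO differed between 10 and 0 uM for 38 members, 33 more positive and 5 more negative at 10 uM (38.8% of all genes called, 19.1% higher and 19.7% lower). The median difference was 0.37 and that of all genes 0.07. Among members called, Ndufa9 (4.10, SE 0.79, adjusted p 0.000203), Uqcrfs1 (2.06, adjusted p 0.00553) and Cox7a1 (1.52, adjusted p 0.00925) were the largest. Atp5sl (-1.65, adjusted p 1.02e-05), Atp5g2 (-1.19, adjusted p 0.000157) and Atp5d (-1.08, adjusted p 0.00278) were the lowest, with Atp5b (-0.96) and Sdhd (-0.47). The count was 24 without Adar1 KO 0 uM replicate 1 (32.8% of all genes called) and 31 without Adar1 KO 10 uM replicate 2 (34.8%).

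The members' median in Adar1 KO cells was 6.79, 6.99 and 6.99 log2 CPM at 0 uM and 7.46, 7.92, 7.41 and 7.41 at 10 uM. At 0.4 uM it was 7.17, 6.85 and 7.23, with the low value in replicate 2, whose Adar stood apart. In NTC cells the median was 6.97, 6.89 and 6.83 at 0 uM and 7.01, 7.16 and 7.14 at 10 uM.

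Cell markers moved with dose in the same libraries. The 4 proliferation markers (Top2a the most abundant) summed to 97.9, 122 and 145 CPM in Adar1 KO cells at 0 uM and 1827, 2681, 2197 and 2042 CPM at 10 uM, and to 381, 568 and 475 and then 1141, 1496 and 926 CPM in NTC cells. The 4 macrophage markers (Cd68 the most abundant in KO cells at both doses) summed to 4729, 4742 and 5009 CPM and then 3125, 2636, 2545 and 2779 CPM in KO cells, and in NTC cells to 4674, 4671 and 4773 and then 3731, 4046 and 4012 CPM. The 3 monocyte markers (F13a1 the most abundant at 10 uM) went from 653, 625 and 689 CPM to 2290, 1711, 2174 and 2135 CPM in KO cells and from 1106, 1396 and 1298 to 2315, 2161 and 2086 CPM in NTC cells. Their part in the members' result was not tested.

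Across the 18 comparisons the members called most often were Atp5g1, Atp5g2, Ndufb5, Uqcr10 and Uqcrq, with 9 calls each. Members and all 10026 genes tested in every comparison had a median of 6 calls, and 13% of all genes and 6.58% of members had 9 or more. Some members were called in 1 direction: lower for Atp5a1 (7 comparisons), Ndufv1 (6), Sdhc (5), Atp5d (4), Sdha (2), Atp5sl (2) and Atp5s (1), and higher for Ndufa1 (7), Ndufa13 (7), Ndufa3 (6), Ndufa7 (5), Sdhb (5), Ndufa6 (4) and Cox7a1 (3). Several comparisons share libraries, so these counts are not independent.

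Members varied less between libraries of a group than genes at large. They also lay at higher levels than genes at large, and the comparison was not matched for level. The median within-group standard deviation was 0.38 for members and 0.52 for all genes in the marrow set, 0.47 and 0.84 in the brain set, 0.18 and 0.23 in the NTC and sgRNA 1 set, 0.07 and 0.15 in the sgRNA 2 set, and 0.16 and 0.28 in the drug series. The exceptions in the brain set were Atp5sl (1.53), Cox7a1 (1.48), Cox5a (1.29), Atp5d (1.18), Uqcrfs1 (1.10) and Ndufs4 (0.97). Cox5a also had a standard deviation of 1.02 in the drug series, above 95.1% of genes.

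Many of the transcripts share sequence with other genes. Sharing was counted over all annotated transcripts. Some of the other genes, Gm26631 and D430001F17Rik among them, are not among the deposited genes. At least 10% of the 31-base words of 34 members occur in other genes, led by Atp5l (85.4%, of which 54.3% with the processed pseudogene Gm10221), Uqcrb (58.2%), Atp5o (56.9%, of which 20.5% with the antisense gene D430001F17Rik), Ndufs3 (55.0%), Cox5a (47.2%), Atp5h (46.9%), Atp5f1 (45.9%) and Atp5g2 (40.2%), and the other 42 share less. In ER-Hoxb8 MLCs over BMD MLCs 26 of the 34 were higher with a median of 1.07, and 21 of the 42 with a median of 0.73. Ndufa9 shares 2.58% and Sdhb 0%.

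Isoform genes below the threshold varied between and within groups. Cox6b2, a testis form of a complex IV subunit, was 4.87, 4.67 and 5.29 log2 CPM in BM progenitors and 3.68, 3.68 and 3.73 in BM monocytes but -3.47, -3.24 and -3.13 in ER-Hoxb8 progenitors. In the brain set it was 1.10, 0.94 and 1.53 in BMD macrophages, 2.46 to 3.48 in BMD MLCs and -3.62, -3.13 and -3.09 in ER-Hoxb8 macrophages, and -2.17, -2.64, -1.35, 0.78, -0.27 and 2.64 in ER-Hoxb8 MLCs. Cox6a2, the heart form of another, was 4.19, -2.72 and -2.80 in ER-Hoxb8 progenitors and 2.39 to 4.54 in microglia. These genes were not tested as members.

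The 13 mitochondrially encoded subunit genes are set beside the nuclear ones without a test of a difference. In ER-Hoxb8 MLCs over ER-Hoxb8 macrophages 6 were higher and 0 lower (median 1.35, 16.6% of all genes higher), in BMD MLCs over BMD macrophages 2 were higher (median 0.79, 16.9% of all genes higher), and in ER-Hoxb8 MLCs over BMD MLCs none was called (median 0.80). In sgRNA 2 cells 11 fell with differentiation (median -0.96, 41.5% of all genes lower), while in NTC cells 4 rose (median 0.60, 33.0% of all genes higher). At 0 uM 6 were lower in Adar1 KO than in NTC cells (median -0.58, 13.6% of all genes lower), and 10 uM raised 9 in KO cells (median 0.62, 33.5% of all genes higher).

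The 77 mitochondrial ribosomal protein genes were also read. With differentiation 69 fell in NTC cells (1 rose), 60 in sgRNA 1 cells (1 rose) and 67 in sgRNA 2 cells, with medians of -1.27, -0.91 and -0.97, where 38.5%, 37.1% and 41.5% of all genes were lower. In Adar1 KO cells 10 uM raised 57 and lowered 8 (median 0.58; all genes 33.5% and 31.6%), and ER-Hoxb8 MLCs held more of 19 than BMD MLCs and less of none (median 0.55; all genes 6.87% and 8.22%).

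Genes of the same pathway outside the name rule were Ndufab1, Cyc1, Cycs and Atpif1. All 4 fell with differentiation in each of the 3 populations (medians -3.04, -1.66 and -1.29) and rose in Adar1 KO cells at 10 uM (median 1.94). Of 39 assembly factor genes tested in NTC cells 22 fell and 3 rose with differentiation (all genes 38.5% and 33.0%), and in Adar1 KO cells at 10 uM 19 of 39 rose and 8 fell (all genes 33.5% and 31.6%). Of 12 regulators of mitochondrial biogenesis 8 fell in NTC cells and none rose.

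Glycolysis and citrate cycle genes were read beside the members. In Adar1 KO cells at 10 uM 13 of 14 glycolysis genes fell (median -1.23), while of 12 citrate cycle genes 5 rose and 5 fell, near the all-gene shares of 33.5% and 31.6%. In BMD MLCs over BMD macrophages 10 of 14 glycolysis genes fell (median -2.17) and 6 of 13 citrate cycle genes fell (median -0.86), with 13.8% of all genes lower. Irg1, whose product makes the complex II inhibitor itaconate, rose by 4.66 in Adar1 KO over NTC cells at 0 uM, fell by 4.06 in KO cells with 10 uM, and rose by 6.83 in ER-Hoxb8 over BMD MLCs.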

How the data were processed

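The authors deposited one table of log2 CPM with 29957 rows, of which 1 has no gene name (0.00226% to 0.0584% of a library), for 92 libraries, all used. By their description the authors trimmed reads with FastP, checked them with FastQC, mapped them with kallisto 0.46.0 and then ran MultiQC (other versions not given), and the authors made the deposited log2 values with edgeR and limma (no version given). Libraries that share one lowest value were scaled together, and only these were compared. From the lowest values and a prior count of 2 (an assumption), mean depth in the 6 sets was 40.6, 24.5, 21.5, 17.1, 23.6 and 13.7 M reads. It was lowest in the baricitinib series, and the error of low levels was not measured by set.

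Each set was fitted with limma 3.58.1 in R 4.3.3 on the deposited log2 values, with a mean per group, eBayes with trend, two-sided p and adjustment over all genes tested. A gene was tested when above 0 log2 CPM in at least 3 libraries (6 in the brain set), and a member was called at adjusted p below 0.05 with no fold limit. The p-values measure the spread between these samples. By the paper's methods the replicates of the drug series were cultures differentiated separately, so its p-values measure the spread between cultures. Without counts, the precision of each value could not be modelled. The fit was checked on simulated data.

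The members were chosen by name with earlier results of these data known, as were the other lists (mitochondrially encoded subunits, mitochondrial ribosomal proteins, assembly factors, biogenesis regulators, glycolysis, citrate cycle, cytosolic ribosomal proteins, and markers of progenitors, monocytes, macrophages, microglia, neutrophils, neurons, astrocytes, endothelium and proliferation). The cytosolic ribosomal protein list was taken by name and also held kinases (Rps6ka1 and related names) and Rps19bp1. Not every gene of these lists, nor every list that was read, is reported. Genes named in the text are, for every comparison, the 3 largest positive and 3 largest negative log2FC among members called, the core subunits (Ndufs1, Ndufv1, Sdha, Sdhb, Uqcrc1, Uqcrfs1, Cox4i1, Cox5a, Atp5a1, Atp5b), isoform pairs, list members, and further called members where a group of calls is listed. Members not called, or standing out in level, spread, shared sequence or number of calls, are named where the sentence says so. Other work used Python 3.11.15, numpy 2.4.6, pandas 2.3.3 and matplotlib 3.10.9.

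Replicate numbers were checked for pairing by correlating the residuals of equally numbered libraries. Every pair lay above 0.1 for day 4 cells with ER-Hoxb8 progenitors (0.23 to 0.43) and for sgRNA 1 with NTC progenitors (0.16 to 0.34), and 2 pairs of sgRNA 1 with NTC macrophages gave 0.15. In the drug series the replicate numbers of the titles do not always follow the order of the library names. Pairing by library name was not checked.

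Sample titles give the low doses as 0.0006 and 0.016 uM and the treatment description as 0.00064 and 0.16 uM, and the titles were used.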

Additional observations from a re-analysis of the deposited data

Results flagged for a closer look

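Levels of the members and their complex medians were screened in 114 series for a library lying alone, and chance would raise such a mark in about 1 in 20 groups.

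Ndufv1 was 4.70 log2 CPM in BMD MLC replicate 3, apart from the other libraries of its group.

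Ndufs1 was 5.96 log2 CPM in ER-Hoxb8 MLC replicate 4, below the other libraries of its group.

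The complex II median was 5.79 log2 CPM in microglia replicate 8, below the other microglia libraries.

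Sdha was 6.19 log2 CPM in microglia replicate 8, below the other microglia libraries.

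Uqcrc1 was 7.11 log2 CPM in microglia replicate 8, below the other microglia libraries.

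Cox4i1 was 9.29 log2 CPM in microglia replicate 2, above the other microglia libraries.

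Atp5b was 8.57 log2 CPM in Adar1 KO sgRNA 2 macrophage replicate 1, apart from the other libraries of its group.

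The members' median was 7.92 log2 CPM in Adar1 KO cells at 10 uM of baricitinib, replicate 2, above the other libraries of its group.

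The log2FC of MLCs over cultured macrophages differed between ER-Hoxb8 and BMD cells for 8 members, while 3.23% of all genes were called, and for 1 without BMD macrophage replicate 3 or ER-Hoxb8 macrophage replicate 3.

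The effect of Adar1 KO by sgRNA 1 differed between macrophages and progenitors for 7 members (9.21%), below the 13.6% of all genes called, and for 1 without sgRNA 1 progenitor replicate 1 or 3 or sgRNA 1 macrophage replicate 1 or 2.

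The effect of Adar1 KO differed between 10 and 0 uM of baricitinib for 38 members, while 38.8% of all genes were called.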

How the results depend on the processing

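Each count and median was taken again with other settings, and the cause of any move was not tested. A count under another setting for which the text gives no share of all genes is a description only. Single calls were retaken for the core subunits and the 3 largest changes in each direction, not for interactions or other named members. Among these, 18 calls were lost and 6 gained with the 2 groups alone in the fit, 10 lost and 9 gained with quantile scaling, 8 lost with no filter, 4 lost and 22 gained with weights per library, and 2 lost and 9 gained with replicate number as a block. With GFPHox libraries alone 8 were lost and 1 gained, and with WTHox libraries alone 1 was lost and 3 gained.

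With a log2FC limit of 2 added to the adjusted p, the count was 0 for ER-Hoxb8 progenitors over BM progenitors, 0 for BMD MLCs over BMD macrophages, 2 for ER-Hoxb8 MLCs over ER-Hoxb8 macrophages, 0 for BMD MLCs over microglia, 1 for ER-Hoxb8 MLCs over microglia and 0 for ER-Hoxb8 over BMD MLCs. It was 3 for NTC macrophages over progenitors, 0 for sgRNA 1 macrophages over NTC macrophages, 0 for sgRNA 1 and 1 for sgRNA 2 macrophages over progenitors. In the drug series it was 1 for Adar1 KO over NTC at 0 uM, 0 at 10 uM, 0 for 10 over 0 uM in NTC cells and 3 in Adar1 KO cells. The share of all genes passing this limit is not given, so these counts are a description only.

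With quantile scaling, 6 members were called for BM monocytes, 9 for ER-Hoxb8 over BM progenitors (median -0.37), 21 for BMD MLCs over BMD macrophages (median -0.52) and 5 for BMD MLCs over microglia. The median was 0.05 for sgRNA 1 over NTC macrophages and -0.42 for sgRNA 2 macrophages over progenitors.

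With weights per library, the count was 13 for BM monocytes over BM progenitors, 6 for ER-Hoxb8 over BMD macrophages, 58 for BMD MLCs over BMD macrophages, 15 for BMD MLCs over microglia and 26 for the brain interaction. It was 22 for sgRNA 1 over NTC macrophages, 28 for Adar1 KO over NTC at 0 uM and 38 for 10 over 0 uM in NTC cells.

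With the 2 groups alone in the fit, 5 members were called for BM monocytes, 0 for ER-Hoxb8 over BM progenitors, 9 for ER-Hoxb8 MLCs over macrophages, 4 for sgRNA 1 over NTC macrophages and 28 for 10 over 0 uM in NTC cells. With no filter on level, 5 were called for BMD MLCs over microglia, 5 for the brain interaction, 4 for sgRNA 1 over NTC macrophages, 1 for the sgRNA 1 interaction and 7 for 10 over 0 uM in NTC cells.

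With replicate number as a block, no count moved past 1.5 times: 50 members were called for ER-Hoxb8 over BMD MLCs, 38 for BMD MLCs over BMD macrophages and 61 for 10 over 0 uM in Adar1 KO cells. The share of all genes called with this block is not given, so these counts are a description only. GFPHox libraries alone gave 11, 14 and 30 for ER-Hoxb8 MLCs over macrophages, microglia and BMD MLCs. Of all genes 26.3%, 26.7% and 14.2% were called there. ER-Hoxb8 progenitor replicate 3 alone gave 1 over BM progenitors and 4 for day 4 cells, but with 1 library in that arm the spread came wholly from the other groups, so these counts support nothing. Adding NTC macrophage replicate 2 gave a median of -0.68 for NTC macrophages over progenitors, and 29 members with a median of 0.36 for sgRNA 1 over NTC macrophages. Leaving out microglia replicate 8 gave 14 for the brain interaction. These last 3 settings were chosen after the data were seen.

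Leaving out 1 library at a time, the count ran 0 to 1 for BM monocytes, 0 to 7 for ER-Hoxb8 over BM progenitors, 0 to 2 for day 4 cells, 20 to 40 for BMD MLCs over BMD macrophages, 9 to 21 for ER-Hoxb8 MLCs over macrophages, 4 to 11 for BMD MLCs over microglia and 1 to 14 for the brain interaction. It ran 1 to 10 for sgRNA 1 over NTC macrophages, 1 to 8 for the sgRNA 1 interaction, 2 to 5 for 10 over 0 uM in NTC cells and 24 to 40 for the drug interaction.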
